A study of Bos indicus x Bos taurus with 78 samples.

Results

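The miRNAs described here are the miR-99, miR-100 and miR-125 rows of a count table of bovine mature miRNAs, taken by name from all rows whose name is miR-99a, miR-99b, miR-100, miR-125a or miR-125b with or without an arm suffix. The rule matched 6 of the 1030 rows of the table, of which 741 had at least 1 count. They were bta-miR-99a-5p, bta-miR-99a-3p, bta-miR-125b, bta-miR-100, bta-miR-99b and bta-miR-125a, named below without the prefix for the species. All 6 passed the low-count filter through the libraries as a whole, all 6 had a count in every steer, and none had counts identical to another row.

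Small RNA was sequenced from frozen biopsies of Longissimus lumborum, the loin muscle, of 78 male Bos indicus x Bos taurus steers, to find miRNAs that go with dark cutting. Dark-cutting beef is a meat quality defect in which the cut muscle stays dark, and a shortage of glycogen in the muscle before slaughter is its known background. By label, 25 steers had the dark-cutting phenotype, graded 1/4 (8 steers), 1/3 (9 steers), 1/2 (3 steers), 2/3 (4 steers) and 3/4 (1 steer), and 53 steers had the normal phenotype. No treatment is named, and the steers' ages are not given in the labels. A biopsy holds all cells of the muscle, so a count cannot tell fewer cells of a type from less miRNA per cell.

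MicroRNAs are short RNAs that hold an Argonaute protein to partly complementary sites in messenger RNAs, which lowers the translation and stability of those messages. miR-99a, miR-99b and miR-100 are near copies that share a seed, the stretch that pairs with the target, and miR-125a and miR-125b share another seed as vertebrate relatives of the worm miRNA lin-4. In mammalian genomes their genes lie together with a let-7 gene: miR-99a with let-7c and miR-125b, miR-100 with let-7a and a further copy of miR-125b, and miR-99b with let-7e and miR-125a. In human cells the miR-99 and miR-100 family is known for sites in MTOR and IGF1R, which act in growth signalling, and in mouse muscle cells miR-125b is known to act on Igf2 and to slow differentiation.

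Total counts ran from 2687185 to 4370459 in the dark-cutting steers and from 1427817 to 4535675 in the normal steers. The tissue label was borne out by the skeletal muscle miRNAs: all 7 on the list had counts, and miR-1 alone made up 83.8% of the counts in dark-cutting steers and 84.2% in normal steers on average. Libraries were not copies of each other, with a smallest chi-square per degree of freedom of 6.30 over the 3003 pairs. Values below are CPM, which are counts scaled to a common library size, here with TMM factors that take out the large share of miR-1, unless a value is said to be a count.

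miR-99a-5p and miR-125b were the most abundant of the 6 rows and miR-99a-3p by far the least. By mean level among all 1030 rows, miR-99a-5p was 23rd, miR-125b 24th, miR-125a 43rd, miR-100 62nd, miR-99b 99th and miR-99a-3p 221st. Together the 6 rows held 0.353% ± 0.0921 of the counts in dark-cutting steers and 0.326% ± 0.0893 in normal steers (SD, n = 25 and 53). Of the counts other than miR-1 they held 2.17% ± 0.410 and 2.07% ± 0.368 in the same groups. Mature miRNAs are of about one length, so the counts need no length scaling, but adapter ligation favours some sequences over others, and the order is one of read counts.

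The order of the levels was nearly the same in every steer. miR-99a-5p exceeded miR-125b in 75 of 78 steers, 23 of 25 dark-cutting and 52 of 53 normal, with a median of 1.24-fold and a range of 0.967 to 1.86-fold. These neighbours are the closest in level, and their ranges over steers overlap in part, from 1053 to 1971 CPM for miR-99a-5p and from 843 to 1564 CPM for miR-125b. miR-125b exceeded miR-125a, its seed partner, in all 78 steers, with a median of 3.00-fold. miR-125a exceeded miR-100 in 77 steers, with a median of 2.36-fold, and the exception was normal steer 42, with 550 counts of miR-125a and 590 of miR-100 (steers are numbered within each group). miR-100 exceeded miR-99b in all 78 steers, with a median of 2.54-fold. miR-99b in turn exceeded miR-99a-3p in all 78, with a median of 20.3-fold.

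None of the 6 miRNAs differed between dark-cutting and normal steers by the edgeR quasi-likelihood test at a Benjamini-Hochberg adjusted p under 0.05 (252 miRNAs tested). No miRNA at all passed that threshold (0% called). At an unadjusted p under 0.05, 23 of the 252 passed (9.13%), and 0 of the 6. Of the 6, 2 had log2 fold changes above 0 and 4 below, with a median of -0.007, beside a median of -0.009 over the 252.

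miR-99a-5p, of the miR-99 and miR-100 family, ranged from 1078 to 1971 CPM with a median of 1441 in dark-cutting steers, and from 1053 to 1897 CPM with a median of 1484 in normal steers. The ranges covered each other, and the normal median was exceeded in 11 of 25 dark-cutting steers. The mean was 1456 ± 245 CPM in dark-cutting steers and 1480 ± 248 CPM in normal steers (SD, n = 25 and 53). The log2 fold change was -0.02 (SE 0.06, 95% confidence interval -0.14 to 0.10, edgeR adjusted p = 0.915).

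miR-100, which differs from miR-99a by little outside the seed, ranged from 113 to 229 CPM with a median of 164 in dark-cutting steers, and from 103 to 244 CPM with a median of 165 in normal steers. The highest and the lowest steers were both normal, and the normal median was exceeded in 12 of 25 dark-cutting steers. Means were 165 ± 30.7 and 166 ± 34.9 CPM for dark-cutting and normal steers (SD, n = 25 and 53), a log2 fold change of -0.007 (SE 0.07, interval -0.15 to 0.13, edgeR adjusted p = 0.974). miR-99b, the least abundant guide of the family, ranged from 41.8 to 91.1 CPM (median 65.8) in dark-cutting steers and from 40.4 to 95.8 CPM (median 64.3) in normal steers. The normal median was exceeded here in 14 of 25 dark-cutting steers, and the log2 fold change was 0.003 (SE 0.07, interval -0.13 to 0.14, edgeR adjusted p = 0.987).

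miR-125b, the more abundant member of the miR-125 pair, ranged from 843 to 1564 CPM with a median of 1159 in dark-cutting steers, and from 871 to 1515 CPM with a median of 1177 in normal steers. Both the lowest and the highest steer were dark-cutting, of degrees 1/4 and 1/3. Means were 1198 ± 205 CPM in dark-cutting steers and 1170 ± 164 CPM in normal steers (SD, n = 25 and 53), with a log2 fold change of 0.03 (SE 0.05, interval -0.07 to 0.14, edgeR adjusted p = 0.855). miR-125a ranged from 259 to 527 CPM (median 396) in dark-cutting steers and from 225 to 480 CPM (median 385) in normal steers. Its lowest value was that of normal steer 42, and the normal median was exceeded in 13 of 25 dark-cutting steers. The log2 fold change of miR-125a was -0.007 (SE 0.06, interval -0.12 to 0.10, edgeR adjusted p = 0.971).

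miR-99a-3p, read from the opposite arm of the miR-99a hairpin, was near the floor of the assay, with 3 to 22 counts in dark-cutting steers and 1 to 23 counts in normal steers. It ranged from 0.820 to 4.93 CPM (median 3.36) in dark-cutting steers and from 0.536 to 8.59 CPM (median 3.24) in normal steers, so the groups overlapped in full. The log2 fold change was -0.16 (SE 0.16, interval -0.47 to 0.15, edgeR adjusted p = 0.710). The 5p arm exceeded the 3p arm by a median of 459-fold in dark-cutting and 450-fold in normal steers. Over single steers that ratio ran from 241 to 1953-fold and from 197 to 2245-fold in the same groups, a spread that small 3p counts widen.

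**Figure D1:**
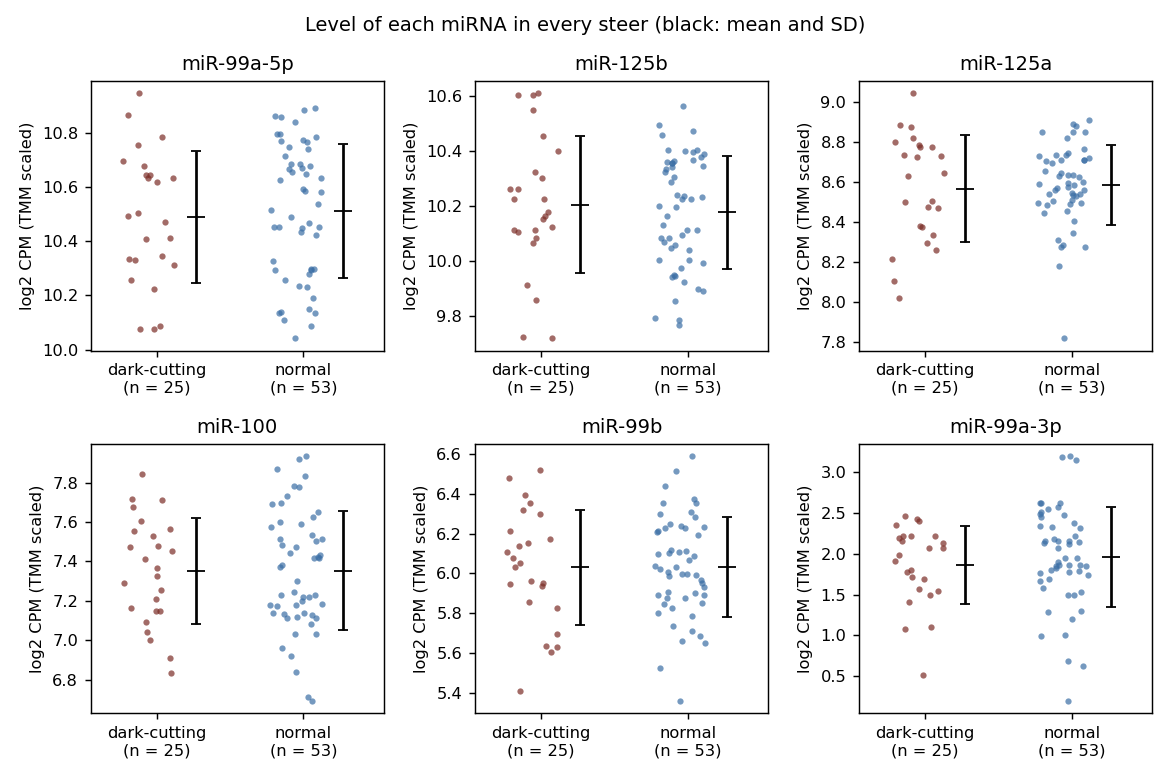
Level of each of the 6 miRNAs in every steer as log2 CPM (TMM scaled), dark-cutting steers (n = 25) in red and normal steers (n = 53) in blue, with the mean and SD of each group in black. The groups overlap in all 6 panels, and the low point of miR-125a among the normal steers is steer 42.

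With TMM scaling, the data bound these differences closely. The 95% confidence interval lay inside a 1.2-fold change in either direction for 5 of the 6 miRNAs, all but miR-99a-3p, and for 101 of the 252 tested (40.1%). It lay inside 1.1-fold for miR-125a and miR-99b, and for 10 of the 252 (3.97%). All 6 and 227 of the 252 (90.1%) lay inside 1.5-fold. Intervals are narrower for abundant miRNAs with little spread between steers, so these shares also reflect level. Under total count scaling the spread was wider, with an SD of log2 CPM in normal steers of 0.36 against 0.20 for miR-125a. These bounds are not given for that scaling.

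Ratios of 2 counts within a library do not depend on scaling, and they gave the balance within the gene clusters. The log2 ratio of miR-125b to miR-99a-5p was -0.28 ± 0.17 in dark-cutting steers and -0.33 ± 0.18 in normal steers (SD, n = 25 and 53). That of miR-125b to miR-100 was 2.86 ± 0.25 in dark-cutting steers and 2.83 ± 0.26 in normal steers. That of miR-125a to miR-99b was 2.55 ± 0.29 in dark-cutting steers and 2.56 ± 0.29 in normal steers. Each of these differences was smaller than the SD between steers of a group, and none was tested.

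In no degree of dark cutting did any of the 6 pass the test against normal steers. Over the 7 comparisons (dark cutting as a whole, 4 degrees, the trend over degree, and higher against lower degree) the 6 miRNAs gave 42 tests, of which 0 passed the adjusted threshold and 0 an unadjusted p under 0.05, and all 42 intervals held 0. The degree comparisons share the same 53 normal steers, so their results are not independent. At the unadjusted threshold, 3 of 272 miRNAs passed for degree 1/4 (1.1%), 25 for degree 1/3 (9.19%), 13 for degree 1/2 (4.78%) and 7 for degree 2/3 (2.57%). At the adjusted threshold, 0 passed (0%) for the first 3 degrees and 1 (0.368%) for degree 2/3, with DESeq2 also calling 0, 0, 0 and 1.

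The median log2 fold change of the 6 against normal steers was -0.06 for degree 1/4, 0.06 for degree 1/3, -0.07 for degree 1/2 and -0.09 for degree 2/3. Over all 272 miRNAs the medians were -0.01, -0.01, -0.002 and -0.07 in the same order. The number of the 6 above 0 was 0 for degree 1/4, 5 for degree 1/3, 0 for degree 1/2 and 1 for degree 2/3. Of all 272 miRNAs, 47.8%, 46.7%, 49.6% and 33.1% were above 0 in the same order. Several of the 6 vary together between steers, so their signs are not all independent, and their values were small beside their intervals.

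The smallest p belonged to miR-99b in degree 1/3. Its 9 steers ranged from 61.3 to 95.2 CPM with a median of 72.6, against 39.5 to 94.6 CPM with a median of 66.4 in the 53 normal steers, on the scaling of that fit. Of the 9, 6 lay above the normal median and the highest was just above the normal range. The log2 fold change was 0.17 (SE 0.09, interval -0.02 to 0.35, edgeR unadjusted p = 0.0763, adjusted p = 0.593). In degree 2/3 the 4 steers had 64.7, 58.7, 67.3 and 40.96 CPM of miR-99b, of which 1 was above the normal median. The log2 fold change there was -0.18 (SE 0.14, interval -0.46 to 0.09, edgeR adjusted p = 0.988).

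miR-125b was the 1 miRNA of the 6 above 0 in degree 2/3, with 1387, 1159, 1426 and 1085 CPM in the 4 steers, against a normal median of 1160. Those 4 values fall on both sides of the normal median, and the log2 fold change was 0.11 (SE 0.11, interval -0.12 to 0.34, edgeR adjusted p = 0.988). In degree 1/2 the 3 steers had 1301, 975 and 1132 CPM of miR-125b and a log2 fold change of -0.04 (SE 0.13, interval -0.31 to 0.22, edgeR adjusted p = 0.994). miR-99a-5p in the same 3 steers had 1591, 1141 and 1491 CPM, with a log2 fold change of -0.07 (SE 0.15, interval -0.36 to 0.22, edgeR adjusted p = 0.994). The first of these steers was the highest of the 3 for both miRNAs and the second the lowest.

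With normal steers as degree 0, the change per unit of degree was between -0.21 for miR-99a-3p and 0.09 for miR-125b on the log2 scale. The slope of miR-125a was -0.003 (SE 0.12, interval -0.25 to 0.24, edgeR adjusted p = 0.986), the smallest in size of the 272 tested. For the trend, 1 of 272 passed the adjusted threshold (0.368%) and 30 the unadjusted one (11%), none of the 6 among them. Within dark-cutting steers, the 8 of degree 1/2 or more against the 17 of degree 1/3 or less gave 0 of 251 calls by edgeR (0%) and by DESeq2, and 6 at an unadjusted p under 0.05 (2.39%). The largest difference among the 6 was that of miR-99b, at -0.17 (SE 0.13, interval -0.44 to 0.10, edgeR adjusted p = 0.989).

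**Figure D2:**
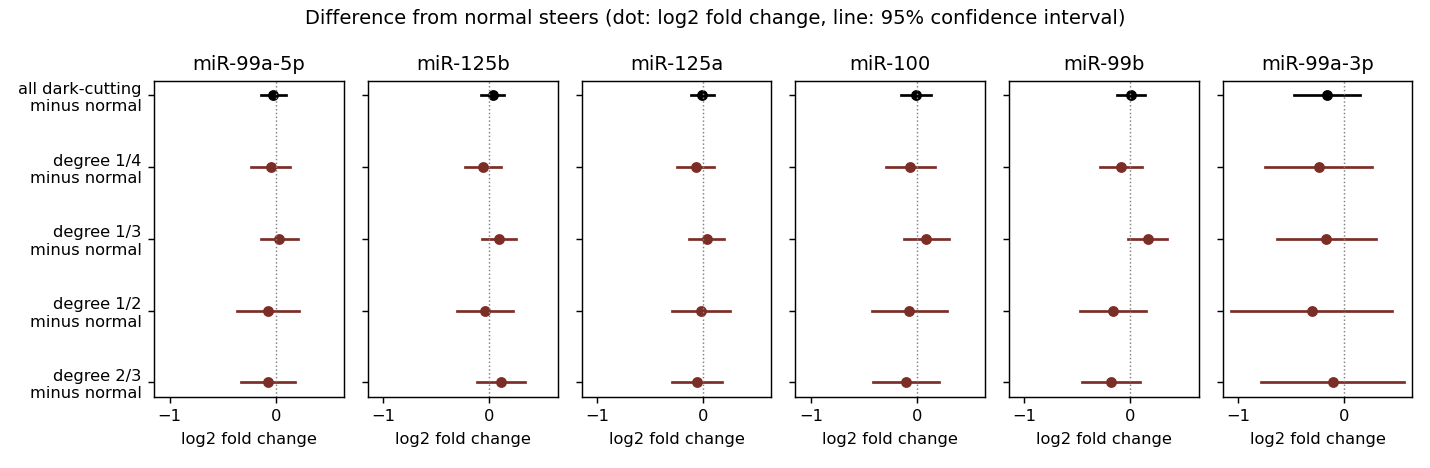
Log2 fold change of each miRNA against the 53 normal steers, for all 25 dark-cutting steers (black) and for degrees 1/4, 1/3, 1/2 and 2/3 (red, n = 8, 9, 3 and 4), with 95% confidence intervals as lines and 0 dotted. Every interval crosses 0, and in each row the interval of miR-99a-3p is the widest.

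Degree 3/4 was represented by 1 steer, without a replicate. Its log2 CPM lay within 1.14 SD of the normal mean for all 6 miRNAs, the farthest being miR-99b at 6.32 against a normal mean of 6.03 ± 0.25. For miR-125b it was at the normal mean, 10.18 in that steer against 10.18 ± 0.21 (SD, n = 53).

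The authors' deposited table gives the same comparison of dark-cutting with normal steers from their own DESeq2 run. In the authors' deposited table the log2 fold change was -0.16 (SE 0.15, adjusted p = 0.952) for miR-99a-3p and 0.04 (SE 0.05, adjusted p = 0.992) for miR-125b. The authors' deposited table has the other 4 between -0.02 and 0.008, with adjusted p-values of 0.992 to 0.993. Of its 542 rows, 42 had an unadjusted p under 0.05 and 0 an adjusted one.

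Between steers, the more abundant of these miRNAs varied little. In normal steers the SD of log2 CPM was 0.20 for miR-125a, 0.21 for miR-125b, 0.25 for miR-99a-5p and for miR-99b, and 0.30 for miR-100, against a median of 0.43 over the 252 miRNAs. From the smallest SD, miR-125a was 8th, miR-125b 9th, miR-99a-5p 26th, miR-99b 29th and miR-100 61st of 252. SD falls with level, so the rank was also taken among miRNAs at least as abundant: 3 of 42 had a smaller SD than miR-125a, 2 of 23 than miR-125b, 6 of 22 than miR-99a-5p, 26 of 97 than miR-99b and 39 of 61 than miR-100. miR-99a-3p had an SD of 0.61, beside about 0.43 for counting error alone at its mean count, computed without the prior count in log2 CPM. SDs do not add, so 0.43 is not a share of 0.61. Scaled by total count, which adds the variation of miR-1, the ranks were 34th for miR-125a, 39th for miR-125b, 50th for miR-99a-5p, 52nd for miR-100 and 81st for miR-99b. Among miRNAs at least as abundant, that scaling gave a smaller SD for 16 of 42 than miR-125a, 14 of 23 than miR-125b, 14 of 22 than miR-99a-5p, 66 of 97 than miR-99b and 29 of 61 than miR-100.

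**Figure D3:**
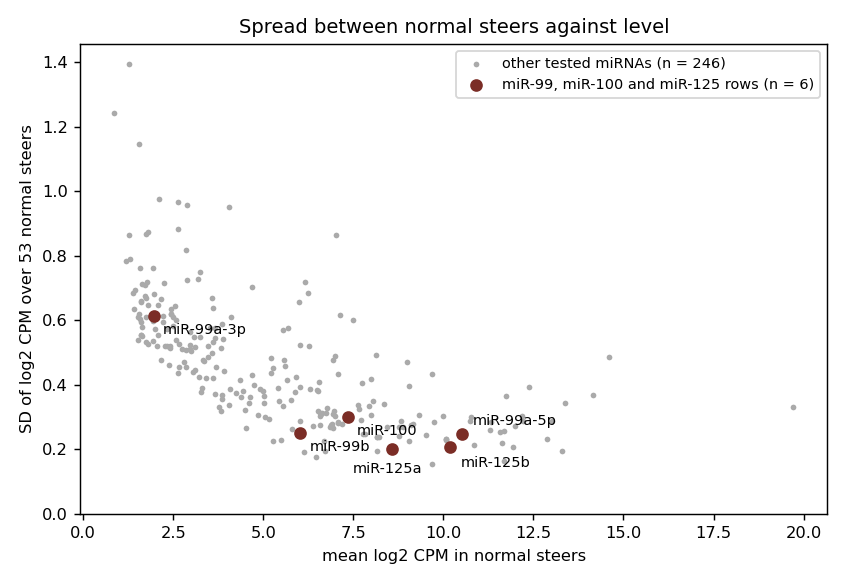
SD of log2 CPM (TMM scaled) over the 53 normal steers against mean log2 CPM for the 252 tested miRNAs, with the 6 miRNAs in red and the other 246 in grey. miR-125a and miR-125b lie near the lower edge of the grey points at their levels, at 0.20 and 0.21, and miR-99a-3p lies among other scarce miRNAs at 0.61.

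Steers with more miR-99a-5p also had more miR-125b. Across the 78 steers their log2 CPM gave Pearson's r = 0.72 and Spearman's rho = 0.69 (permutation p = 1e-05 for both, the smallest that 100000 resamples can give, adjusted p = 3e-05 over the 15 pairs of the 6 miRNAs, two-sided). Without the 2 steers farthest from the median of miR-99a-5p, r was 0.69. Within groups the rho was 0.71 for dark-cutting steers and 0.66 for normal steers, and 0.86 among steers with title numbers below 600 and 0.60 among those of 600 or above, a split of the animal numbers that the labels do not name as a batch. Only 0.256% of the 31626 pairs of tested miRNAs had a rho as high, beside a median near 0 and a 99th percentile of 0.56. Those pairs include scarce miRNAs, with more counting error, and were not matched for level. All correlations are between rows of the same libraries and share their scaling.

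Of the 15 pairs, 10 passed an adjusted permutation p under 0.05 for rho, all of them positive. The miR-99 and miR-100 family varied together: rho was 0.57 for miR-99a-5p with miR-100 (r = 0.58, adjusted permutation p = 3e-05), 0.52 for miR-99a-5p with miR-99b (r = 0.56, adjusted permutation p = 3e-05) and 0.41 for miR-100 with miR-99b (r = 0.40, adjusted permutation p = 0.000471). Without the 2 farthest steers these r were 0.58, 0.55 and 0.37. The family members are near copies, and how reads shared between them were assigned is not given. The part of read assignment in these correlations was not tested. miR-125b followed the same family, with a rho of 0.56 with miR-99b (r = 0.53, 0.49 without 2 steers) and 0.53 with miR-100 (r = 0.54, 0.52 without 2 steers), both with an adjusted permutation p of 3e-05. Within title numbers below 600 and of 600 or above, the rho of these 5 pairs lay between 0.40 and 0.63.

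miR-125a stood apart from miR-99a-5p and miR-100, but not from miR-125b and miR-99b. Its rho was 0.07 with miR-99a-5p (r = 0.03, adjusted permutation p = 0.595) and 0.05 with miR-100 (r = -0.02, adjusted permutation p = 0.685). It was 0.47 with miR-125b, which shares its seed (r = 0.45, 0.41 without 2 steers, adjusted permutation p = 7.5e-05), and 0.39 with miR-99b, which shares its gene cluster (r = 0.32, 0.33 without 2 steers, adjusted permutation p = 0.000862). With miR-125b the rho reached 0.66 in dark-cutting steers, against 0.32 in normal steers, and with miR-99b 0.55 and 0.25 in the same groups. The difference between the groups was not tested. Within title numbers below 600 and of 600 or above, the values were 0.48 and 0.46 with miR-125b, and 0.46 and 0.37 with miR-99b. Scaled by total count, which gives all miRNAs of a library a shared shift with miR-1, the rho of miR-125a with miR-99a-5p was 0.51 and with miR-100 0.42, so the low values were not kept under that scaling.

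The rho between the arms of the miR-99a hairpin was low. With 1 to 23 counts of miR-99a-3p per steer, counting error limits how high any rho with it can be. miR-99a-3p gave a rho of 0.34 with miR-99a-5p (r = 0.34, 0.35 without 2 steers, adjusted permutation p = 0.0048), with 0.33 and 0.31 in the title ranges below 600 and of 600 or above. With miR-125b it gave 0.26 (r = 0.24, 0.29 without 2 steers, adjusted permutation p = 0.0309), with 0.26 and 0.23 in those ranges. With miR-99b, miR-100 and miR-125a its rho was 0.20, 0.14 and -0.08 (adjusted permutation p = 0.101, 0.279 and 0.574).

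**Figure D4:**
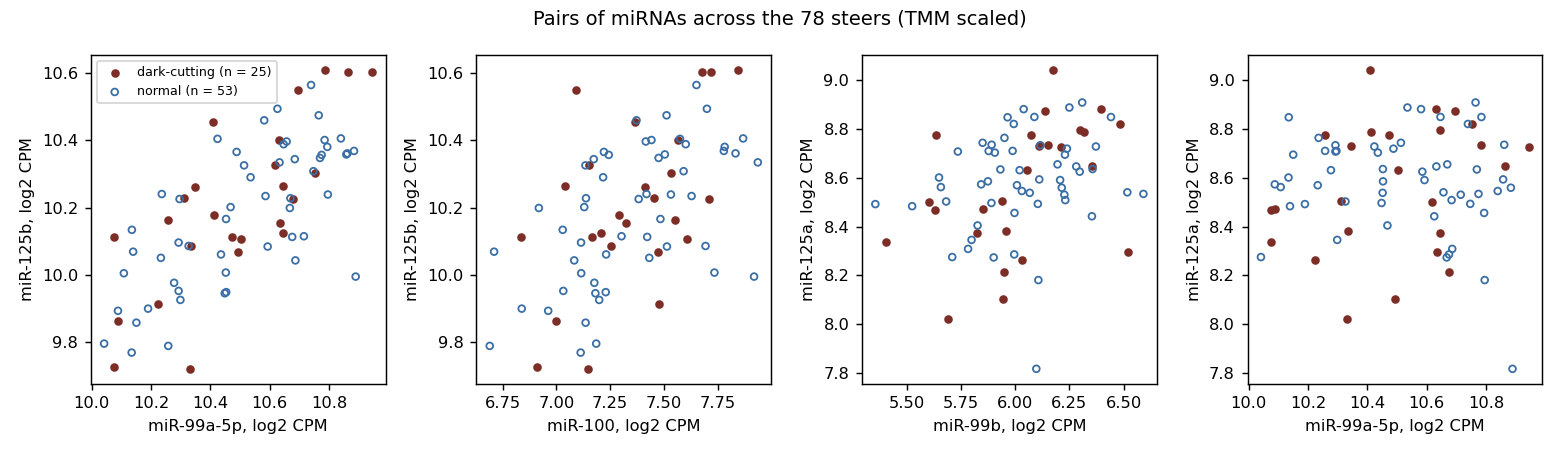
Log2 CPM (TMM scaled) of 4 pairs of miRNAs in the 78 steers, dark-cutting as filled red points (n = 25) and normal as open blue points (n = 53). miR-125b rises along with miR-99a-5p (rho 0.69) and miR-100 (rho 0.53), miR-125a more loosely with miR-99b (rho 0.39), and miR-125a shows no clear slope on miR-99a-5p (rho 0.07).

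The let-7 miRNAs, which in mammals share the gene clusters and are known for holding back growth and pluripotency genes, gave mixed correlations with their cluster neighbours between steers. let-7c gave a rho of -0.04 with miR-99a-5p (r = -0.06, adjusted permutation p = 0.804) and 0.13 with miR-125b (r = 0.10, adjusted permutation p = 0.364). let-7a-5p gave -0.17 with miR-100 (r = -0.22, adjusted permutation p = 0.243). let-7a-3p, from the opposite arm, gave 0.33 with miR-100 (r = 0.27, 0.23 without 2 steers, adjusted permutation p = 0.0185 for rho and 0.0522 for r) and 0.37 with miR-125b (r = 0.33, 0.31 without 2 steers, adjusted permutation p = 0.00707). In the title ranges below 600 and of 600 or above, those were 0.42 and 0.27, and 0.48 and 0.28. let-7e gave -0.30 with miR-99b (r = -0.25, -0.28 without 2 steers, adjusted permutation p = 0.03 for rho and 0.0705 for r) and 0.24 with miR-125a (r = 0.35, adjusted permutation p = 0.1 for rho and 0.00914 for r). These are from 72 relations of the 6 miRNAs with 10 let-7 rows and 2 miR-10 rows. No genomic position is given, so which gene copies each let-7 row counts is not known.

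Relations outside the clusters ran in both directions. let-7a-3p also gave a rho of 0.29 with miR-99a-5p (r = 0.24, adjusted permutation p = 0.0346 for rho and 0.0882 for r) and 0.30 with miR-99a-3p (r = 0.31, adjusted permutation p = 0.0303). let-7e was lower in steers with more miR-99a-5p, with a rho of -0.42 (r = -0.41, -0.39 without 2 steers, adjusted permutation p = 0.0013). It was -0.31 and -0.46 in the title ranges below 600 and of 600 or above. let-7e also gave -0.35 with miR-100 and -0.30 with miR-99a-3p (adjusted permutation p = 0.0093 and 0.0301). miR-98 gave -0.30 with miR-99a-5p and -0.32 with miR-99b (adjusted permutation p = 0.0301 and 0.0242), but -0.13 and -0.14 below 600. let-7d gave -0.30 with miR-99a-5p and 0.28 with miR-125a (adjusted permutation p = 0.03 and 0.0483). let-7d gave -0.37 with miR-100 (r = -0.40, -0.39 without 2 steers, adjusted permutation p = 0.00654), but -0.04 below 600 and -0.47 at 600 or above, so that relation rests on the upper range. let-7b gave 0.45 with miR-125a (r = 0.51, 0.44 without 2 steers, adjusted permutation p = 0.00054), with 0.63 and 0.37 in those ranges. Against normal steers, 7 of the 10 let-7 rows had a log2 fold change above 0 and 3 below, from -0.13 to 0.09, none called.

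miR-10a and miR-10b, which are related in sequence to miR-99 and miR-100, were higher in steers with more miR-99a-5p, miR-99b, miR-100 and miR-125b. miR-10a gave a rho of 0.70 with miR-99a-5p (r = 0.72, 0.69 without 2 steers, adjusted permutation p = 0.00018) and 0.59 with miR-125b (r = 0.60, 0.59 without 2 steers, adjusted permutation p = 0.00018). In the title ranges below 600 and of 600 or above these were 0.81 and 0.64, and 0.77 and 0.43. miR-10b gave 0.65 with miR-99a-5p (r = 0.66, 0.64 without 2 steers, adjusted permutation p = 0.00018), with 0.74 and 0.59 in the ranges. With miR-100 the rho was 0.48 for miR-10a (r = 0.47, 0.46 without 2 steers, adjusted permutation p = 0.00024) and 0.44 for miR-10b (r = 0.48, 0.49 without 2 steers, adjusted permutation p = 0.000411). With miR-99b it was 0.51 for miR-10a (r = 0.52, 0.50 without 2 steers, adjusted permutation p = 0.00024) and 0.31 for miR-10b (r = 0.28, 0.26 without 2 steers, adjusted permutation p = 0.0258). With miR-125b, miR-10b gave 0.52 (r = 0.55, 0.53 without 2 steers, adjusted permutation p = 0.00018). With miR-99a-3p the rho of 0.25 for miR-10a and 0.20 for miR-10b missed the threshold (adjusted permutation p = 0.0895 and 0.173), as did those with miR-125a, 0.21 and 0.16 (adjusted permutation p = 0.148 and 0.255). Neither miR-10 row passed the test of dark-cutting against normal steers, with log2 fold changes of -0.003 (SE 0.08, edgeR adjusted p = 0.987) for miR-10a and -0.03 (SE 0.06, edgeR adjusted p = 0.908) for miR-10b.

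**Figure D5:**
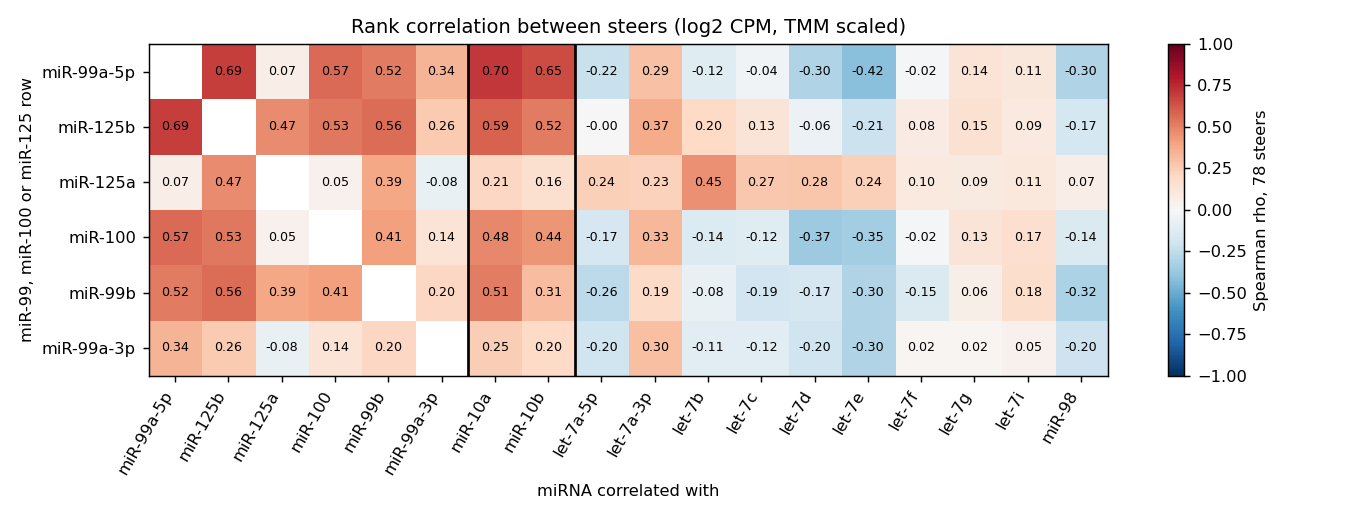
Spearman's rho of log2 CPM (TMM scaled) over the 78 steers, for each of the 6 miRNAs (rows) with each other, with miR-10a and miR-10b, and with 10 let-7 rows (columns, split by black lines), red for positive and blue for negative. The miR-10 block is red for miR-99a-5p (0.70 and 0.65) while let-7e is blue for it (-0.42), and miR-125a is pale with miR-99a-5p (0.07) and miR-100 (0.05).

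Among all 246 other tested miRNAs, the 3 most like each of the 6 by rho were taken as a description. For miR-99a-5p they were miR-199b (0.73), miR-10a (0.70) and miR-10b (0.65), and for miR-100 they were miR-199b (0.55), miR-10a (0.48) and miR-2284a (0.45). For miR-125b they were miR-191 (0.71), miR-320a (0.61) and miR-10a (0.59), and for miR-99b miR-191 (0.56), miR-11977 (0.52) and miR-10a (0.51). For miR-125a they were let-7b (0.45), miR-191 (0.42) and miR-1343-3p (0.40). Thus miR-10a was among the 3 for 4 of the 6 miRNAs and miR-191 for 3. For miR-99a-3p the highest were miR-2284y (0.40), miR-2284a (0.40) and miR-140 (0.39).

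Summed markers of other cell types moved with some of these miRNAs across steers, among 42 relations with 7 lists. Each sum adds CPM, so it mostly follows the most abundant row of its list. Mean log2 CPM in normal steers was 11.63 for miR-21-5p but 6.54 for miR-199b, and 14.60 for miR-143 but 7.74 for miR-145. The fibroblast list (miR-199a-3p, miR-199a-5p, miR-199b, miR-214 and miR-21-5p, 5 of 5 with counts) summed to between 2921 and 4864 CPM in dark-cutting steers and between 3090 and 7284 CPM in normal steers. Its rho was 0.41 with miR-99a-5p (r = 0.41 with and without 2 steers, adjusted permutation p = 0.003), 0.37 with miR-100 (r = 0.39, 0.35 without 2 steers, adjusted permutation p = 0.00574), 0.35 with miR-99b (r = 0.29, 0.27 without 2 steers, adjusted permutation p = 0.00848) and 0.01 with miR-125a (adjusted permutation p = 0.904). With miR-125b it was 0.27 (r = 0.23, 0.20 without 2 steers, adjusted permutation p = 0.0392 for rho and 0.0704 for r). The rho with miR-99a-5p was 0.42 in both title ranges. In dark-cutting and normal steers it was 0.28 and 0.45 with miR-99a-5p, and 0.11 and 0.47 with miR-100. The difference between the groups was not tested. The miR-199b that is most like miR-99a-5p is 1 of the 5 on that list, but a small part of its sum beside miR-21-5p.

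The red blood cell list (miR-451 and miR-144, 2 of 2 with counts) summed to between 68.6 and 233 CPM in dark-cutting steers and between 55.6 and 2795 CPM in normal steers. Its rho with miR-99a-5p was -0.48 (r = -0.45, -0.44 without 2 steers, adjusted permutation p = 0.00042), with -0.55 and -0.41 in the title ranges. It was also -0.35 with miR-100 and -0.28 with miR-125b (adjusted permutation p = 0.00761 and 0.0346). The endothelial list (miR-126-3p and miR-126-5p, 2 of 2) summed to between 3201 and 6812 CPM in dark-cutting steers and between 3468 and 7894 CPM in normal steers. Its rho was -0.42 with miR-125b (r = -0.41, -0.43 without 2 steers, adjusted permutation p = 0.003) and -0.41 with miR-99a-5p, and 0.08 with miR-125a. In the title ranges it was -0.39 and -0.44 with miR-125b. Over all steers it was also -0.32 with miR-100 and -0.30 with miR-99a-3p (adjusted permutation p = 0.0147 and 0.0254). The smooth muscle and pericyte list (miR-143 and miR-145, 2 of 2) summed to between 12491 and 51945 CPM in dark-cutting steers and between 12415 and 68321 CPM in normal steers. Its rho was -0.39 with miR-99a-5p (r = -0.28, -0.24 without 2 steers, adjusted permutation p = 0.00412, and -0.39 and -0.35 in the title ranges). It was also -0.35 with miR-125b (adjusted permutation p = 0.00848). Among the 5 white blood cell miRNAs (5 of 5), sums ran from 51.8 to 140 CPM in dark-cutting and from 50.4 to 220 CPM in normal steers. Their rho was -0.32 with miR-125b (r = -0.35, -0.38 without 2 steers, adjusted permutation p = 0.0147, and -0.14 and -0.41 in the title ranges). It was also -0.29 with miR-99a-5p and -0.28 with miR-99a-3p (adjusted permutation p = 0.0314 and 0.0346). In dark-cutting against normal steers both red blood cell miRNAs had an unadjusted edgeR p under 0.05, among 23 of the 252 tested (9.13%). Their log2 fold changes were -0.86 for miR-144 and -0.52 for miR-451, and neither passed the adjusted threshold. The median of their sum went the other way, with 132 CPM in dark-cutting steers and 119 CPM in normal steers. The skeletal muscle list, whose sum is mostly miR-1, gave no rho above 0.18 in size. For nerve, 1 of 2 miRNAs was tested, sums were at most 13.1 CPM, and the rho with miR-125a was 0.36 (r = 0.29, adjusted permutation p = 0.00761). Skin epithelium and liver lists were at or near 0, with miR-205 at 0 in all steers. The part of these cell types in the levels or in the correlations of the 6 miRNAs was not tested.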

How the data were processed

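Small RNA libraries were made with a NEXTflex kit from total RNA of each biopsy, per the labels' protocols. FastQC, Trimmomatic 0.32 and DESeq2 1.34.0 are named in the submitters' processing notes, while for the aligner, counter, miRNA reference and genome nothing is stated, each being not given in the sources used here. How reads shared by near-identical miRNAs were assigned is likewise not given, no genomic position is stated, and no sequences are printed. The deposited matrix holds raw counts per mature miRNA and steer, per the file headers and values, and its 78 columns were matched to the labels by title number. The authors' deposited table gives per miRNA a mean normalized signal, a log2 fold change with its SE, a Wald score, and a p-value with its adjusted p-value. It names no contrast: a DESeq2 run with dark-cutting over normal on the rows with at least 10 counts gave its Wald scores within 7.55e-08.

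The test of the counts was that of edgeR 4.0.16 under R 4.3.3 (robust quasi-likelihood F test, TMM factors, Benjamini-Hochberg adjustment over all miRNAs tested, threshold 0.05). The filter was filterByExpr with a minimum count of 10 for dark-cutting against normal (252 miRNAs). For degrees and trend it asked for 10 counts, scaled to the median library, in 8 or more libraries and for a sum of 15 (272, or 251 within dark-cutting steers). TMM factors were recomputed on each set, so CPM in the paragraphs on degrees 1/4 to 2/3 differ from the others. In degree 2/3 the mean of miR-99a-5p was 1406 CPM with the factors of the degree fits and 1494 CPM with the others. That of miR-125b was 1264 and 1340 CPM. CPM and log2 CPM (prior count 2) were computed here. Correlations used two-sided permutation tests of 100000 resamples. Scripts were tested on simulated data. Alternatives were DESeq2 1.42.0, limma-voom 3.58.1, other scalings, no filter, title ranges and leaving out steers.

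Steers are separate animals by title. Total counts of 1427817 to 4535675 per library limit the precision of miR-99a-3p, and no correction was made for repeated reads. The 6 miRNAs, the let-7 and miR-10 rows and the marker lists were chosen with earlier results of these data known. The miRNAs named are the 6, those lists, and per miRNA the 3 rows with the highest rho. Beside these, normal steer 42 was singled out after its values were seen.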

Additional observations from a re-analysis of the deposited data

How the results depend on the processing

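None of the 6 miRNAs passed the adjusted or the unadjusted threshold in any comparison under the alternatives tried across all miRNAs (DESeq2 size factors, DESeq2, total count scaling, no low-count filter, limma-voom for dark-cutting against normal). The number of all miRNAs called for dark-cutting against normal was 2 without the low-count filter (main 0), and for the trend it was 3 with DESeq2 size factors, with total count scaling, without the filter and with DESeq2, and 0 without the 4 steers of degree 2/3 (main 1). Leaving out 1 steer of degree 2/3 gave 0 to 1 calls in that comparison (main 1). Total count scaling moved the median log2 fold change of all miRNAs to 0.10 for dark-cutting against normal, 0.13 for degree 1/3, 0.17 for degree 1/2 and 0.19 for the trend. Of the 39 changes of sign among the differences of the 6, leaving out single steers aside, 18 came with it, and none of the 39 differences was past the threshold. The largest to change sign was the trend of miR-99a-3p, at -0.21.

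For dark-cutting against normal, total count scaling gave log2 fold changes of 0.091 for miR-99a-5p, 0.10 for miR-125a and 0.12 for miR-100. No filter gave 0.0056 for miR-125a and 0.010 for miR-100, and limma-voom 0.0019 for miR-100 and -0.00658 for miR-99b. Title numbers below 600 gave 0.022 for miR-99a-5p and -0.00882 for miR-99b, and those of 600 or above 0.021 for miR-125a and 0.00307 for miR-100. Without 1 steer the values ran from -0.029 to 0.013 for miR-125a, -0.0303 to 0.0126 for miR-100 and -0.0196 to 0.034 for miR-99b. In degree 1/4, total count scaling gave 0.035 for miR-99a-5p, 0.014 for miR-125b and 0.033 for miR-100. In degree 1/2 it gave 0.092 for miR-99a-5p, 0.12 for miR-125b, 0.14 for miR-125a and 0.0897 for miR-100. Without 1 of the 3 steers, values ran from -0.17 to 0.059, -0.15 to 0.055, -0.068 to 0.0085 and -0.27 to 0.041 for the same 4. In degree 2/3, total count scaling gave 0.016 for miR-99a-5p and 0.0295 for miR-125a, no filter 0.015 for miR-99a-5p and 0.029 for miR-125a, DESeq2 size factors 0.0057 and DESeq2 0.0060 for miR-125a. Without 1 of the 4 steers, values ran from -0.22 to 0.041 for miR-99a-5p, -0.14 to 0.014 for miR-125a and -0.19 to 0.026 for miR-99a-3p. For the trend, total count scaling gave 0.17 for miR-99a-5p, 0.25 for miR-125a, 0.20 for miR-100, 0.19 for miR-99b and 0.052 for miR-99a-3p. miR-125a was at 0.0226 with DESeq2 size factors, 0.0225 with DESeq2, 0.0492 without the filter and 0.049 without degree 2/3, and miR-99b at 0.011 without the filter and 0.13 without degree 2/3. Within dark-cutting steers, miR-125a was at 0.0127 with DESeq2 size factors, 0.0128 with DESeq2, 0.0399 with total count scaling and 0.022 without the filter.

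Among correlations, that of miR-125a with miR-99a-3p was 0.19 under total count scaling and 0.078 in dark-cutting steers, that of miR-100 with miR-99a-3p -0.0085 in dark-cutting steers, and that of miR-99a-5p with miR-125a -0.11 in normal steers and -0.023 for title numbers of 600 or above. For title numbers below 600, miR-125a with miR-100 gave -0.0503 and miR-99b with miR-99a-3p -0.035. The number of pairs past the threshold ran from 7 to 14 over the alternatives (main 10). A test of whether the difference between phenotypes differs with the title range, chosen after seeing the data, called 0 of 252 miRNAs by edgeR, 10 at an unadjusted p under 0.05 and 0 of the 6 in either. No paired analysis was possible because the replicate numbers only count steers within a group and each title names a different animal. The cause of these changes was not tested. Degrees 1/2 and 2/3, with 3 and 4 steers, bound differences least.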

Other observations

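None of the 6 miRNAs had a steer far from the others in the groups of 4 to 9 steers (18 groups looked at, by the gap to the nearest steer as a share of the range). Levels of the 6 miRNAs were compared with 3 measures of the library, the total count, the share of miR-1 and the TMM factor, in 18 relations across the 78 steers. None passed the adjusted permutation threshold, with the smallest adjusted p at 0.177 for rho. miR-99a-3p had the largest rho in size, -0.27 with the total count (r = -0.16, -0.31 without the 2 farthest steers), followed by 0.25 for miR-100 with the share of miR-1 (r = 0.19). Normal steer 42 held both the lowest miR-125a (225 CPM) and, among normal steers, the highest miR-99a-5p (1897 CPM) and miR-99a-3p (8.59 CPM).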
